A study of Homo sapiens with 6 samples.

Results

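The genes described are subunits, inhibitors and feedback targets of the transcription factor NF-kB, in SUM159 cells given decitabine and in untreated cells. The rule names 10 genes and takes those with a named array feature, which left 6 of the 14884 genes measured. These were the subunit genes NFKB1, NFKB2, REL, RELA and RELB and the adaptor gene TRAF1. The inhibitor genes NFKBIA and NFKBIE and the feedback genes TNFAIP3 and BIRC3 lacked a named feature and are not analysed here, so the feedback arm is represented by a single gene. Each of the 6 had 1 named feature. The rule itself uses gene symbols and no measured value, but it was written with earlier results of these data known.

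SUM159 is an established human breast carcinoma line of the triple-negative kind. The 3 decitabine samples came from cells kept for 72 h in medium with 1 µM of the drug, renewed each day, and the 3 untreated samples from cells in drug-free medium for the same time. The treatment text calls the drug a deoxy form of azacytidine, the titles of untreated samples also carry the dose, and no label says whether the control medium held a solvent. Both groups grew in a medium that contained serum, insulin and hydrocortisone, and no label says that a ligand of the NF-kB pathway was added to either. Decitabine is a cytidine analogue that is built into replicating DNA and traps DNA methyltransferases. All samples are of 1 line, and the labels do not tell whether replicates came from separate cultures, so the tests cover the spread among these arrays alone, part of which may be technical.

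NF-kB acts as dimers of proteins that share the Rel homology domain. RELA, RELB and REL carry a transactivation domain, whereas NFKB1 and NFKB2 encode the precursors p105 and p100, which are processed to p50 and p52 and hold dimers in the cytoplasm until then. In the canonical arm a ligand such as TNF activates IkB kinase, IkB proteins are degraded and dimers such as p50 with RELA enter the nucleus. In the noncanonical arm the kinase encoded by MAP3K14 drives processing of p100, and p52 acts with RELB. NF-kB raises the transcription of several of its own subunits and brakes, among them NFKB1, NFKB2, RELB and TRAF1, and many basal-like breast carcinoma lines have constitutive NF-kB activity.

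Array values were read as log2 expression. The arrays differed in their overall distribution, and medians over all features were 3.03 and 2.98 on the replicate 1 arrays and 2.29 to 2.42 on the other 4. Arrays with the same replicate number deviated together from their group means, so a change is given for each same-numbered pair too, and a fit with the replicate number as a block stands beside the fit without it. Of the listed markers of the line, vimentin (VIM) lay at 9.13 to 9.68 in untreated and 8.66 to 8.97 in decitabine arrays. The change of VIM had a limma adjusted p of 0.317, and 0.104 with the block. Fibronectin (FN1) lay at 10.39 to 11.14 on the 6 arrays, KRT18 at 7.57 to 7.97, CD44 at 6.14 to 7.27 and KRT8 at 3.41 to 4.45. Of the luminal and receptor markers, the oestrogen receptor gene ESR1 lay at 1.50 to 2.43, but GATA3 at 5.32 to 5.79. Marker levels were not all steady: of the 6 measured markers of the line, the receptor tyrosine kinase gene AXL fell by 1.79 on the log2 scale (limma adjusted p = 0.00361) and none rose. Of 5 luminal and receptor markers none passed without a block in limma, and the epithelial adhesion gene EPCAM rose with it, by 1.10 (adjusted p = 0.00829, and 0.127 without it). Of 12 leukocyte markers 5 were measured, and the sum of their log2 values was 15.8 to 18.2 in untreated and 17.1 to 18.6 in decitabine arrays. Among these CD14 was at 2.32 to 2.60 in untreated and 3.08 to 3.34 in decitabine arrays (limma adjusted p = 0.115, and 0.0247 with the block). CD68, the brightest of the 5, was at 6.63 to 6.94 in untreated and 7.17 to 7.28 in decitabine arrays (limma adjusted p = 0.30, and 0.0739 with the block). LYZ, a lysozyme gene of myeloid cells, lay at 1.04 to 2.20 on the 6 arrays, CSF1R at 2.33 to 3.24 and NKG7 at 2.98 to 3.82. The part of these markers in the results was not tested.

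NFKB1 fell after decitabine in the fit without a block, and NFKB2 and TRAF1 passed the test when same-numbered arrays were paired. The log2 change was -1.12 for NFKB1, -0.87 for NFKB2 and -0.80 for TRAF1, against -0.33 for RELA, -0.27 for RELB and -0.15 for REL. Thus 1 of the 6 genes fell in the fit without a block, where 1.02% of all genes fell, and 3 of the 6 fell with the block, where 5.37% did. No member rose in either fit, while 2.01% of all genes rose without a block. All 6 were lower in each of the 3 pairs, as were 21.8% of all genes, and the median change of the 6 was -0.57 against -0.02 over all genes.

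**Figure D1:**
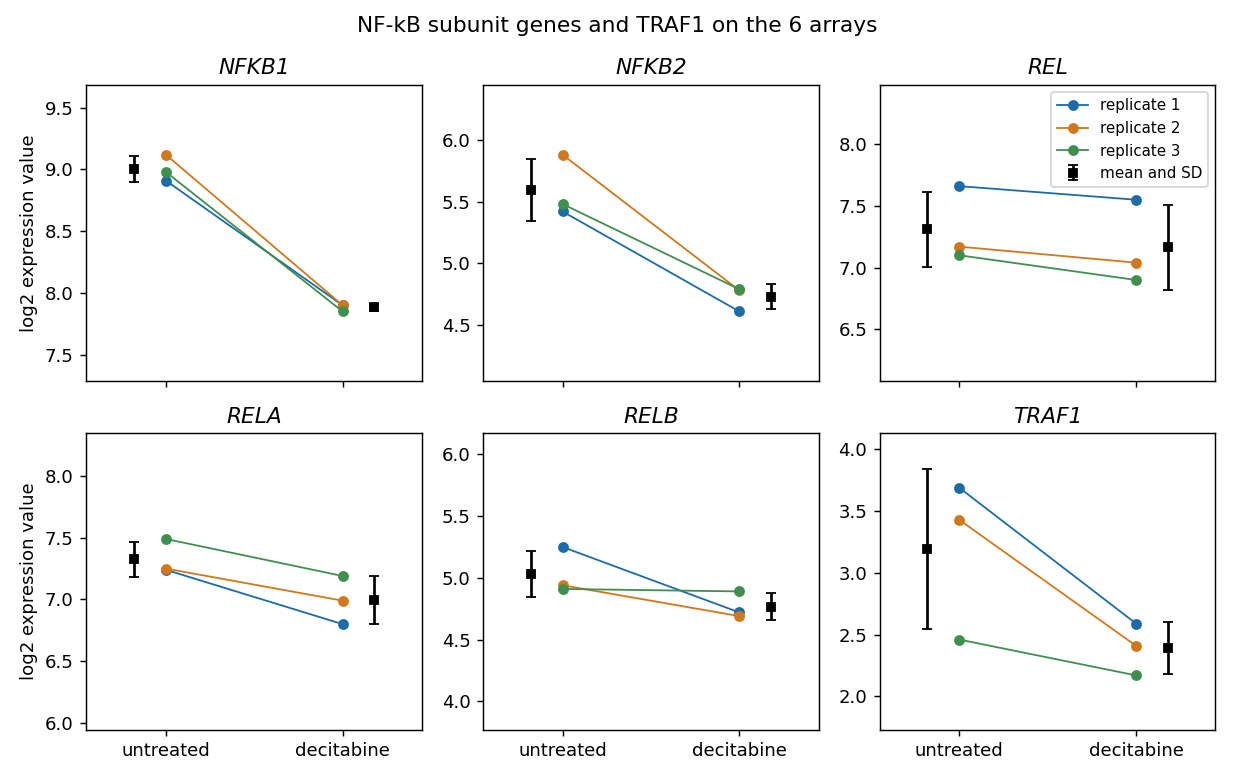
Log2 expression of the 6 genes (vertical axes, each spanning the same range) in untreated and decitabine arrays, with lines joining arrays of the same replicate number and squares with bars giving mean and SD (n = 3). The decitabine values of NFKB1 lie at 7.85 to 7.90, below its untreated values of 8.91 to 9.12, while the values of REL overlap between groups.

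NFKB1 (Entrez Gene 4790) encodes p105 and p50. Its untreated values were 8.91, 9.12 and 8.98 in replicates 1 to 3, and its decitabine values were 7.90, 7.90 and 7.85. The groups did not overlap, and the decitabine values were closer together than the untreated ones. The means were 9.00 ± 0.11 and 7.88 ± 0.03 (SD, n = 3 per group), a 2.17-fold difference. The log2 change had an SE of 0.19, a 95% interval of -1.55 to -0.69 and a limma adjusted p of 0.0200, and with the replicate block the adjusted p was 0.00510. The pairs gave -1.01, -1.22 and -1.13, and 179 of the 14884 genes had a change further below 0. The call was lost without decitabine replicate 1 (limma adjusted p = 0.0620), untreated replicate 2 (0.124), decitabine replicate 2 (0.107), untreated replicate 3 (0.0780) or decitabine replicate 3 (0.0919), and after median centring (0.0984). In those settings, all fitted without a block, the change itself was -1.13 to -1.06.

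The bases before the NFKB1 and REL start sites held letters of the NF-kB binding motif. They are shown with those of NFKB2, which held no match in the 250 bases searched. The sequences are RefSeq promoters of GRCh38.p14, 250 bases up to the start site, written 5′ to 3′ on the gene's strand, with matches to the kB consensus in capitals.
NFKB1 (chr4:102501109-102501358, + strand): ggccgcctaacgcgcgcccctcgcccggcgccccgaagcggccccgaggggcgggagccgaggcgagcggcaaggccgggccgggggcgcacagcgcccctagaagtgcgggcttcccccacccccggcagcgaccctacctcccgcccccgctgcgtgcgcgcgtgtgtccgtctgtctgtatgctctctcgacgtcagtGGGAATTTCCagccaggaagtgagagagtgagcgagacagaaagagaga
REL (chr2:60881324-60881573, + strand): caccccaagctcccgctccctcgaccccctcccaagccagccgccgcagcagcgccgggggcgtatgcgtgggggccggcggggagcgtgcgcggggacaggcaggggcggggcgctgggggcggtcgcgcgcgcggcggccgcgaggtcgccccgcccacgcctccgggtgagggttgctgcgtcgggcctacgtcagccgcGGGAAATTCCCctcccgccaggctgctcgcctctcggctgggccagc
NFKB2 (chr10:102393860-102394109, + strand): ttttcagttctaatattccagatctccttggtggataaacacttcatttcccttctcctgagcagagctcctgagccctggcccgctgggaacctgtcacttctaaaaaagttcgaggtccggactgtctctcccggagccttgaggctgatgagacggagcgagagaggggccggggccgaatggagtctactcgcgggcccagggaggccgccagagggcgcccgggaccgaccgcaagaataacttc
The kB consensus, a motif of 10 bases, was searched on both strands. NFKB1 held 1 match, GGGAATTTCC, 49 to 40 bases before the start. REL held 2 that overlap each other on opposite strands, GGGAAATTCC at 47 to 38 and GGAAATTCCC at 46 to 37 bases before the start. Of 10749 tested genes with such a window, 11.2% held a match. The windows of NFKB2, RELA and TRAF1 held none, and 5 of the 6 genes had an entry. A match is a description of the letters in this window. For each gene 1 window before 1 start site was searched, so sites elsewhere were not covered. The relation of matches to the changes was not tested.

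These windows also differed in CpG dinucleotides, the sites that DNA methyltransferases methylate. There were 36 in REL, 31 in NFKB1, 25 in TRAF1, 15 in NFKB2 and 4 in RELA, against a median of 18 and quartiles of 7 and 26 over the windows of tested genes. The windows of REL and RELA thus stood at opposite ends of these 5 windows in CpG count. Other start sites of these genes were not covered. The relation of CpG count to the changes in expression was not tested. DNA methylation was not measured on these arrays.

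NFKB2 (4791) encodes p100 and p52, the subunit of the noncanonical arm. Its untreated values were 5.42, 5.88 and 5.48, and its decitabine values were 4.61, 4.78 and 4.79. Untreated replicate 2 was the highest, and the groups did not overlap. The change was -0.87 (SE 0.21, 95% interval -1.36 to -0.38), with pair values of -0.81, -1.10 and -0.69. It missed the threshold without a block (limma adjusted p = 0.0788) and fell with the replicate block (0.0145). Quantile normalization also brought it past the threshold (0.0443), as did leaving out the dimmer 50% of genes (0.0180).

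RELA (5970) encodes p65, the main transactivating partner of p50. Its untreated values were 7.24, 7.25 and 7.49, and its decitabine values were 6.80, 6.99 and 7.19. All decitabine values lay below all untreated ones, though the highest of the former (7.19) came close to the lowest of the latter (7.24). The change was -0.33 (95% interval -0.81 to 0.14, limma adjusted p = 0.614), and with the block the interval was -0.63 to -0.03 and the adjusted p 0.139.

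RELB (5971) encodes the partner of p52. It read 5.25, 4.94 and 4.91 in untreated arrays and 4.72, 4.69 and 4.89 in decitabine arrays. The groups did not overlap, but the lowest untreated value (4.91) and the highest decitabine value (4.89) were nearly equal. Its pair values were -0.53, -0.25 and -0.02, and the change of -0.27 (95% interval -0.73 to 0.20) had a limma adjusted p of 0.754, or 0.299 with the block. The change was -0.14 without both arrays of replicate 1 and -0.16 without untreated replicate 1.

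REL (5966) encodes c-Rel, a subunit best known in lymphoid cells. Its untreated values were 7.66, 7.17 and 7.10, and its decitabine values were 7.55, 7.04 and 6.90. Both replicate 1 values were above the other 4, and the groups overlapped. The change was -0.15 (95% interval -0.75 to 0.45, limma adjusted p = 0.981), and with the block the interval narrowed to -0.44 to 0.14 (adjusted p = 0.486). The pair values were -0.11, -0.13 and -0.20. In the fit without a block the change was 0.03 without untreated replicate 1 and -0.34 without decitabine replicate 1. It was -0.25 without untreated replicate 3 and -0.02 without decitabine replicate 3. In all, 4 of the 6 genes (NFKB1, NFKB2, RELA and RELB) had every decitabine value below every untreated value, as had 8.74% of all genes.

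Whether NFKB1 changed more than the other subunits was tested within arrays, as the difference of log2 values, in 4 comparisons. NFKB1 had the largest fall of the subunits on these same arrays, so the negative sign of each mean difference was fixed in advance. A single sign over the pairs and separate groups were made more likely in the same way. The change of NFKB1 minus that of REL was -0.90, -1.09 and -0.93 in the 3 pairs. It was -0.57, -0.96 and -0.83 against RELA, and -0.48, -0.97 and -1.11 against RELB. The mean over pairs was -0.97 ± 0.10 for REL, -0.79 ± 0.20 for RELA and -0.85 ± 0.33 for RELB (SD over 3 pairs), and the values of each comparison had a single sign. An exact two-sided permutation test over the arrays gave p = 0.10 for each (0.133 after Benjamini-Hochberg adjustment), and an exact sign-flip test over the pairs gave 0.25. These are the smallest p-values that either test can give at this size, so neither can pass 0.05 and the question stays undecided. Against NFKB2 the difference was -0.20, -0.12 and -0.44 in the pairs, with an exact permutation p of 0.20 over the arrays. The groups overlapped in the comparison with NFKB2 and in none of the other 3.

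**Figure D2:**
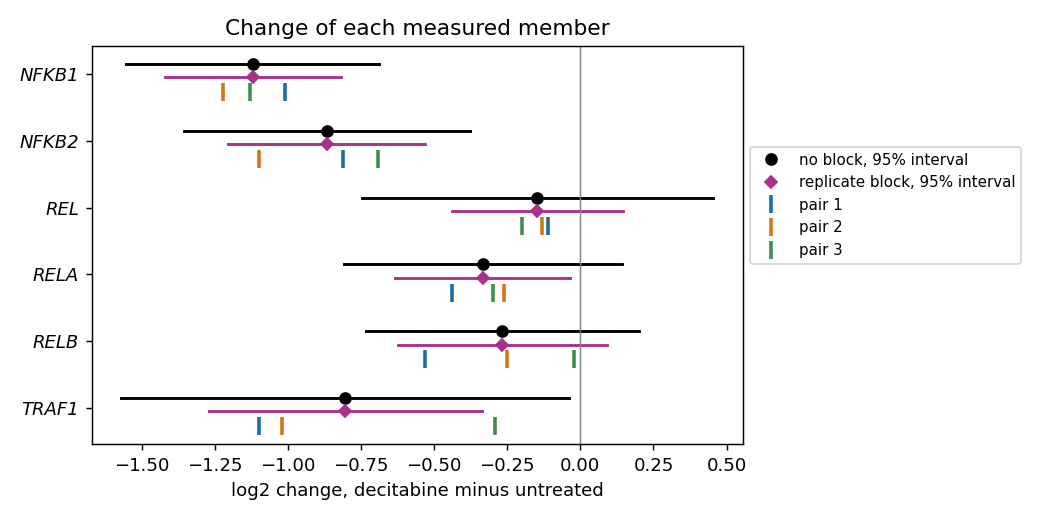
Log2 change of each gene (horizontal axis, decitabine minus untreated), with the 95% interval of the fit without a block (black) and with the replicate block (purple) and the 3 pair values as ticks. The intervals of NFKB1 and NFKB2 exclude 0 in both fits, that of TRAF1 reaches -0.04 without a block, and those of REL and RELB include 0 in both.

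TRAF1 (7185) encodes an adaptor of TNF receptor family members that is itself a target of NF-kB and binds the cIAP ubiquitin ligases. Its untreated values were 3.69, 3.43 and 2.46, and its decitabine values were 2.59, 2.41 and 2.17. Untreated replicate 3 lay below decitabine replicate 1, so the groups overlapped. Untreated replicates 1 and 2 lay above their array medians of 3.03 and 2.42, and untreated replicate 3 was near its median of 2.29. The decitabine values were near or below their array medians of 2.98, 2.40 and 2.37. Signal over background was not assessed, so the size of the change holds for the deposited values alone. The change was -0.80 (SE 0.33, 95% interval -1.57 to -0.04) with pair values of -1.10, -1.02 and -0.29. It missed the threshold without a block (limma adjusted p = 0.326) and passed it with the replicate block (0.0454). Without untreated replicate 3 the change was -1.17, and without untreated replicate 1 it was -0.56.

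**Figure D3:**
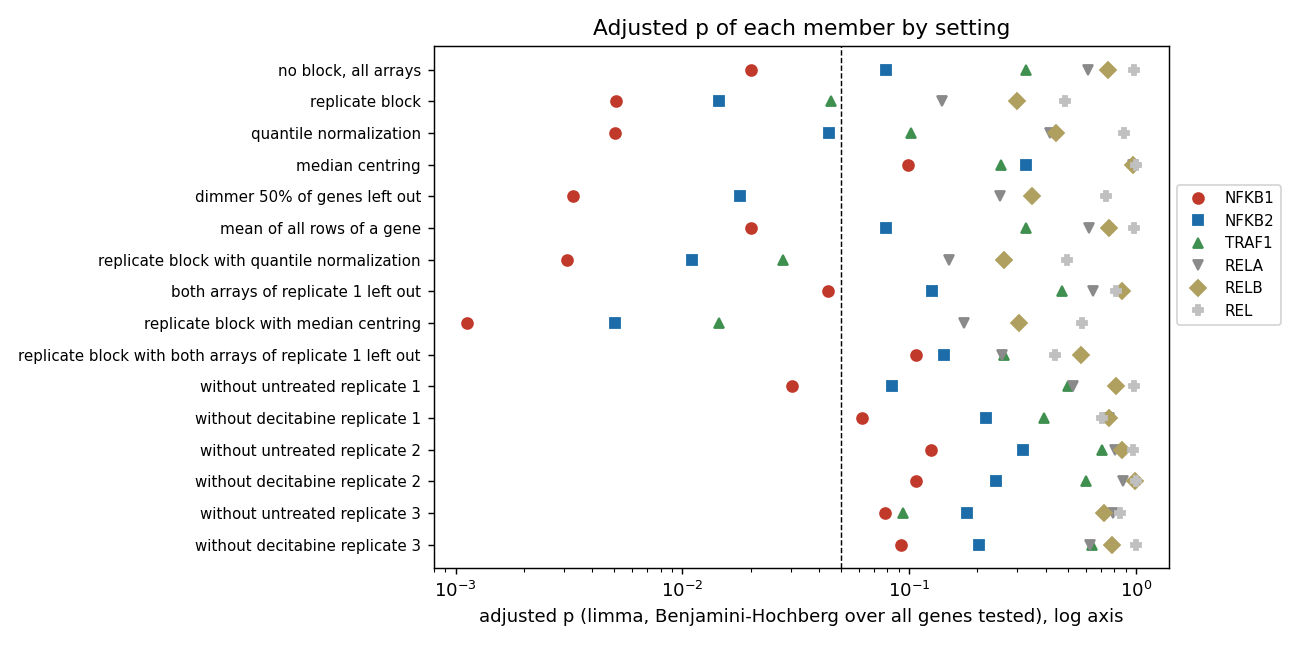
Adjusted p of each gene (horizontal log axis, limma with Benjamini-Hochberg adjustment) under each setting (vertical axis), with the dashed line at 0.05. NFKB1 lies left of the line without a block (0.0200) and with it (0.00510), NFKB2 and TRAF1 do so with the block, and none of the 6 does without untreated replicate 2.

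The other genes of the pathway were followed in 6 lists that together held 132 genes, of which 87 were measured. Without a block 3 of these rose (TLR4, IRAK3 and CCL20) and 2 fell (TNIP1 and TNC), against 3.03% of all genes called. With the replicate block 8 rose and 22 fell, against 7.79% and 5.37% of all genes. The median change of the 87 was -0.10. Separation of the groups was complete upward for 10 and downward for 17 of them, against 11.3% and 8.74% of all genes.

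**Figure D4:**
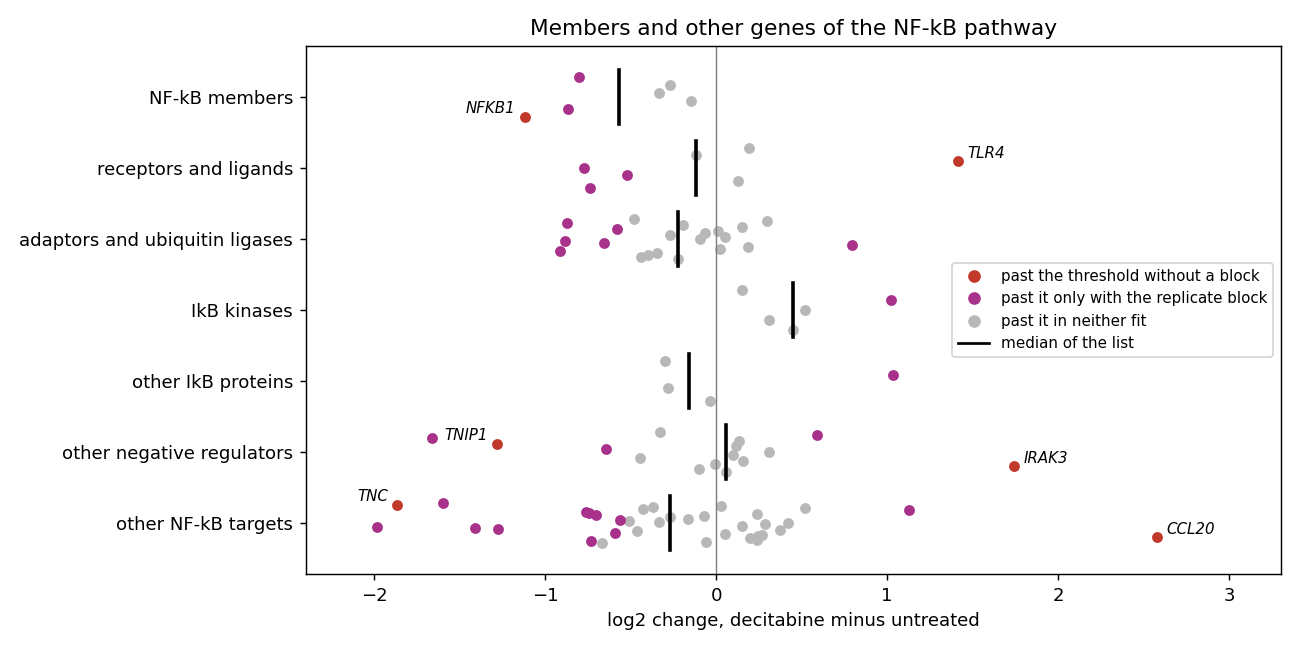
Log2 change (horizontal axis, decitabine minus untreated) of each measured gene by list, with red points past the threshold without a block, purple points past it with the replicate block only, grey points past it in neither fit, and black bars at list medians. Medians run from -0.57 for the members to 0.45 for the kinase list, and CCL20 at 2.58 and CXCL8 at -1.98 are the extremes of the target list.

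Among ligands and receptors, 7 of 21 listed genes were measured, 1 rose, none fell and 6 did not pass, and their median was -0.12. Over all genes 2.01% rose and 1.02% fell. TLR4, the receptor for bacterial lipopolysaccharide, read 6.40, 6.67 and 6.56 untreated and 7.89, 7.95 and 8.04 after decitabine. It rose by 1.42 (SE 0.19, limma adjusted p = 0.00898, and 0.00274 with the block). In the fit without a block it missed the threshold without decitabine replicate 2 (0.0584). With the block, where 5.37% of all genes fell, 3 further genes fell. They were TLR3, a sensor of double-stranded RNA (-0.77, adjusted p = 0.0163), IL1RAP, the accessory chain of the interleukin 1 receptor (-0.74, adjusted p = 0.0188), and TLR2 (-0.52, adjusted p = 0.0455). None of these 3 passed without the block (limma adjusted p = 0.178, 0.254 and 0.886). The pair values of TLR2 were -0.40, -0.55 and -0.61. The replicate 1 array was the lowest of each group, at 6.74 untreated and 6.34 after decitabine. The change of TLR2 without a block moved with single arrays, to -1.04 without untreated replicate 1 and -0.06 without decitabine replicate 1. It was -0.30 without untreated replicate 2 and -0.22 without untreated replicate 3. The ligand gene TNF itself changed by 0.19 (SE 0.47, limma adjusted p = 0.996), with values of 4.15, 3.40 and 2.29 untreated and 3.94, 3.54 and 2.94 after decitabine. The groups overlapped.

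Of 26 adaptors and ubiquitin ligases 21 were measured, and none passed without a block in limma, although the list's median was -0.22. With the block 5 fell and 1 rose, where 5.37% and 7.79% of all genes did. IRAK2, a kinase of interleukin 1 and Toll-like receptor signalling, changed by -0.91 (adjusted p = 0.0823 without and 0.0178 with the block). RIPK2, the kinase below the NOD receptors, changed by -0.88 (0.0823 and 0.00889), and TRAF3, a brake on the noncanonical arm, by -0.87 (0.0629 and 0.0163), all in limma. The gene that rose with the block was MYD88, the adaptor of most Toll-like receptors, at 0.80 (adjusted p = 0.504 without and 0.0263 with it). The change of MYD88 was 0.53 without untreated replicate 1 and 0.42 without decitabine replicate 3.

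The list of IkB kinases and the kinases that act on them had 8 genes, 5 of them measured. All 5 changes were above 0, as were 7036 of all 14884, and the median was 0.45. None of the 5 passed without a block in limma. CHUK, the IKK alpha subunit, read 6.99, 7.04 and 6.84 untreated and 7.46, 7.60 and 7.16 after decitabine, a change of 0.45 (SE 0.21, adjusted p = 0.404, and 0.0701 with the block). MAP3K14, the NIK kinase that drives p100 processing, changed by 0.31 (adjusted p = 0.631, and 0.175 with the block). MAP3K8, a kinase that p105 binds and restrains, rose with the block, by 1.02 (adjusted p = 0.0198, and 0.269 without it). Its untreated values of 3.65, 2.84 and 2.14 spread more widely than its decitabine values of 4.22, 3.97 and 3.51, and its change was 0.66 without untreated replicate 3. IKBKB and IKBKG are not analysed here.

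Other IkB proteins and their partners had 4 of 7 genes measured, none past the threshold without a block in limma. BCL3, a nuclear IkB protein that binds p50 and p52 dimers, changed by -0.03 (SE 0.24, adjusted p = 1.00), with values of 6.08, 5.36 and 5.91 untreated and 5.70, 5.75 and 5.80 after decitabine, and the sign of its change varied with the array left out. NKIRAS1, a small GTPase that binds IkB proteins, rose by 1.03 with the block (adjusted p = 0.0487, and 0.321 without it). Its change was 0.66 without both arrays of replicate 1. NFKBIB and NFKBIZ were not analysed here.

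Negative regulators beside the members had 15 of 16 genes measured, 1 higher, 1 lower and 13 not past the threshold, with a median of 0.06. Over all genes 2.01% rose and 1.02% fell. TNIP1, which binds the A20 protein encoded by TNFAIP3, read 7.30, 7.66 and 7.14 untreated and 5.90, 6.38 and 5.98 after decitabine. It fell by 1.28 on the log2 scale (SE 0.24, limma adjusted p = 0.0292, and 0.00367 with the block). TNIP1 held without untreated replicate 1 (0.0492) and missed the threshold without decitabine replicate 1 (0.0918), untreated replicate 2 (0.144), decitabine replicate 2 (0.0725), untreated replicate 3 (0.0685) or decitabine replicate 3 (0.122). It also missed the threshold with median centring (0.0880) and without both arrays of replicate 1 (0.0950). TNIP3, a relative of TNIP1, had a change of -1.66 with pair values of -1.63, -1.72 and -1.63, from untreated values of 6.82, 6.69 and 5.58 to decitabine values of 5.19, 4.97 and 3.95. It missed the threshold without a block (limma adjusted p = 0.0923) and fell with it (0.00147).

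IRAK3, an inactive kinase that restrains Toll-like receptor signalling, rose by 1.74 (SE 0.28, limma adjusted p = 0.0175, and 0.00893 with the block). It went from 2.20, 2.37 and 1.41 untreated to 3.64, 3.72 and 3.85 after decitabine. The untreated values lay below their array medians of 3.03, 2.42 and 2.29, and signal over background was not assessed. The second IRAK3 feature gave a change of -0.25 at a mean of 1.58 untreated. The mean of both features gave 0.75 (limma adjusted p = 0.251), so the features disagree. IRAK3 missed the threshold without decitabine replicate 2 (0.0809), decitabine replicate 3 (0.0836) or both arrays of replicate 1 (0.0569). TANK, which binds TRAF proteins and the kinase TBK1, changed by -0.64, and TRAFD1, an inhibitor of TRAF6 signalling, by 0.59. These passed with the block (limma adjusted p = 0.0450 and 0.0351) and not without it (0.182 and 0.268).

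Of 54 other NF-kB target genes 35 were measured, 1 rose, 1 fell and 33 did not pass, where 2.01% of all genes rose and 1.02% fell. With the block 2 rose and 11 fell, where 7.79% and 5.37% of all genes did. The median was -0.27, and 21 of the 35 changes were below 0, as were 7848 of all 14884. The genes that rose with the block were CCL20 and PTGES. PTGES read 2.63, 3.56 and 2.93 untreated and 3.90, 4.18 and 4.43 after decitabine. Its change was 1.13 (limma adjusted p = 0.0178 with the block, and 0.0873 without it). TNC, the matrix protein tenascin C, read 8.07, 8.60 and 8.25 untreated and 6.45, 6.57 and 6.30 after decitabine, and fell by 1.87 on the log2 scale (SE 0.22, limma adjusted p = 0.00510). Its call was kept without any single array.

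Of the 7 measured chemokine genes of that list 1 rose and 3 fell when the arrays were paired, where 7.79% and 5.37% of all genes did. CXCL10 (0.37), CCL2 (0.20) and CCL5 (0.25) did not pass in either fit (limma adjusted p of 0.350, 0.619 and 0.253 with the block). CCL20, the ligand of CCR6, read 8.26, 7.95 and 6.65 untreated and 10.20, 10.38 and 10.02 after decitabine. It rose by 2.58 (SE 0.40), a 5.98-fold difference, with a limma adjusted p of 0.0155, and 0.00438 with the block. Without a block the call of CCL20 was lost when untreated replicate 2 (0.0506), decitabine replicate 2 (0.0741) or decitabine replicate 3 (0.0588) was left out. CXCL8, the neutrophil attractant interleukin 8, read 10.08, 9.46 and 8.37 untreated and 7.45, 7.65 and 6.86 after decitabine. Its change of -1.98 (SE 0.43) missed the threshold without a block (limma adjusted p = 0.0541) and passed it with the block (0.00574). The groups of CXCL8 did not overlap.

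CXCL2 and CXCL3, relatives of CXCL8 that bind the same receptor, changed by -1.28 and -1.41. They passed with the block (limma adjusted p = 0.00662 and 0.0222) and not without it (0.245 and 0.501). VCAM1, an adhesion molecule for leukocytes, changed by -1.60 from untreated values of 5.23, 4.44 and 3.41 to decitabine values of 2.82, 3.12 and 2.35 (adjusted p = 0.116, and 0.0170 with the block, in limma). CXCL3 had the widest untreated values of these genes, 7.00, 4.26 and 4.44, with replicate 1 apart from the others. Without untreated replicate 1 the change of CXCL3 was -0.53.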

How the data were processed

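Total RNA of 6 samples was measured on 1-colour arrays. Per the submitters' processing notes the authors used the Transcriptome Analysis Console. Version, normalization, filters and build: not given in the sources used here. Values deposited by the authors ran from 0.17 to 12.89 and were read as log2 expression. The base is not stated, so folds rest on that reading. The number of arrays limits the precision.

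Of 48226 features 16098 carried 1 gene symbol, 0 carried several and 32128 had no name here. RefSeq (GRCh38.p14) supplied current symbols by Entrez Gene ID, and all 16098 matched. The feature with the highest mean stood for each of 14884 genes. Groups were compared with limma 3.58.1 (R 4.3.3) on all 6 arrays, two-sided, without a covariate, and p-values were adjusted by Benjamini-Hochberg over all genes, with 0.05 as threshold. As a check of the code, the fits were run on simulated data with known changes, replicate offsets and independent noise. That check does not bear on the calls made here.

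Replicate numbers in the titles were taken to pair the arrays, because deviations from group means correlated at 0.682, 0.595 and 0.558 within numbers and at -0.483 to -0.0062 between arrays of other numbers and groups. Named pathway genes were those called without a block, up to 4 per list called only with it, and CHUK, MAP3K14 and BCL3. TNF, PTGES, CXCL10, CCL2 and CCL5 were named in addition, outside that rule. Members and lists were chosen with earlier results of these data known. Alternatives were other scalings, a filter on dim genes, the mean of a gene's features, the block and arrays left out. Single arrays were left out in the fit without a block, so those settings do not use the pairing.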

Additional observations from a re-analysis of the deposited data

How the results depend on the processing

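Without a block and with all arrays, limma called 451 genes, 1 of the 6 NF-kB members (NFKB1) and 5 of the 87 pathway genes. Of the 451 genes 299 were higher and 152 lower. The replicate block gave 1959 (1159 higher and 800 lower), 3 and 30. The block with quantile normalization gave 2271 (1225 higher and 1046 lower), 3 and 30. Quantile normalization alone gave 938, 2 and 11 (3 pathway genes higher and 8 lower), and leaving out the dimmer 50% of genes, among them TRAF1, gave 989, 2 and 12. Median centring gave 0 members (3 at an unadjusted p under 0.05) and 7 pathway genes, 3 higher and 4 lower. Without both arrays of replicate 1 there were 3 pathway genes and NFKB1 was kept. Each array left out in turn gave 130 to 477 genes, 0 to 1 members and 1 to 6 pathway genes, with 2 to 3 members at an unadjusted p under 0.05. A group then holds 2 arrays, and these fits had no block.

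In settings added after seeing the data, the replicate block with median centring gave 2145, 3 and 31. The block without both arrays of replicate 1 gave 0 genes, 0 members and 0 pathway genes in limma (3514, 2 and 40 at an unadjusted p under 0.05), where fewer arrays were fitted. The change of REL was -0.34 to 0.03 with single arrays left out (0.028 without untreated replicate 1), and the other 5 members kept their direction in all settings run. Why the calls moved with scaling was not tested. The median change of all genes was 0.12 without untreated replicate 1 and -0.14 without decitabine replicate 1. The arrays gave no signal over background, which limits TRAF1 most among the members.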
